A study of Mus musculus with 8 samples.

Results

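The genes described here are 7 long noncoding RNAs that are known from neurons or from an imprinted region: *Meg3*, *Rian*, *Mirg*, *Malat1*, *Neat1*, *Miat* and *Snhg11*. They were chosen by name, not by their values, though with earlier results of these data known. They are 7 of the 45706 genes in the deposited gene table. All 7 were among the 14962 genes with enough reads to be tested. They were measured by bulk RNA-seq in hippocampal neurons of C57/Bl6 wild-type mice at embryonic day 18, cultured until days 12 to 14 in vitro and incubated for 4 h with 1 µM melanin-concentrating hormone (MCH), a peptide of lateral hypothalamic neurons, or with H2O as vehicle. Each treatment has 4 wells, numbered here as replicates 1 to 4. Per treatment, 2 wells came from each of 2 separately prepared cultures, but the culture of each well is not given by the labels, so *P* values measure the spread between wells, part of which is technical. A model tag of Alzheimer's disease stands beside the wild-type genotype in the labels of all wells.

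Imprinted genes are transcribed from 1 parental copy. In the *Dlk1*–*Dio3* region, the maternal copy gives rise to *Meg3*, *Rian* and *Mirg*, of which *Rian* is known as a host of small nucleolar RNAs and *Mirg* as a host of microRNAs, whereas the protein-coding genes *Dlk1*, *Rtl1* and *Dio3* are transcribed from the paternal copy. *Malat1* is an abundant nuclear RNA of the splicing speckles, and its neighbour *Neat1* is the RNA around which paraspeckles form. *Miat*, also called Gomafu, is retained in neuronal nuclei, and *Snhg11* is a host gene of small nucleolar RNAs.

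The totals ranged from 26083936 to 31844861 estimated counts per well, and no pair of wells held identical values. The 15 neuronal markers summed to 9738 to 9926 CPM (counts scaled to a common depth) in wells with replicate numbers 1 and 2. In wells 3 and 4 they summed to 8922 to 9149 CPM. Wells with replicate numbers 1 and 2 stood apart from wells 3 and 4 in both treatments. The summed CPM of 10 astrocyte markers was 1222 to 1342 in wells 1 and 2 and 2655 to 3016 in wells 3 and 4, and that of 10 markers of dividing progenitors was 139 to 169 against 390 to 412. Of 10 oligodendrocyte lineage markers, *Sox10*, *Mog* and *Mag* stayed under the floor of 3 counts. The sum of these markers was 68.3 to 79.0 CPM in wells 1 and 2 and 147 to 170 CPM in wells 3 and 4. In bulk RNA, fewer cells of a type and less RNA per cell cannot be told apart. That the treatment was followed by a change in gene expression is shown by *Fos*, an immediate early gene, at 54.6 to 70.4 CPM in vehicle-treated wells and 31.9 to 36.9 CPM in MCH-treated wells (log2 fold change −0.91, edgeR adjusted *P* = 0.00492).

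None of the 7 noncoding RNAs passed the test of MCH against vehicle. In edgeR's quasi-likelihood test, with *P* values adjusted over the 14962 genes, 35 genes (0.234%) had an adjusted *P* value under 0.05, of which 4 (0.0267%) were higher and 31 (0.207%) lower with MCH. At an unadjusted *P* value under 0.05 there were 1272 genes (8.5%), and 0 of the 7. DESeq2 called 170 genes (1.14%) and also 0 of the 7. Of the 7, 4 had a higher and 3 a lower mean with MCH. Their log2 fold changes had a median of 0.02, beside a median of −0.0027 over all genes tested. The treatments overlapped in all 7, whereas they did not overlap in 902 genes (6.03%) of those tested. Among the 6384 genes annotated as long noncoding, 800 were tested, 0 passed in edgeR and 39 had an unadjusted *P* value under 0.05.

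**Figure D1:**
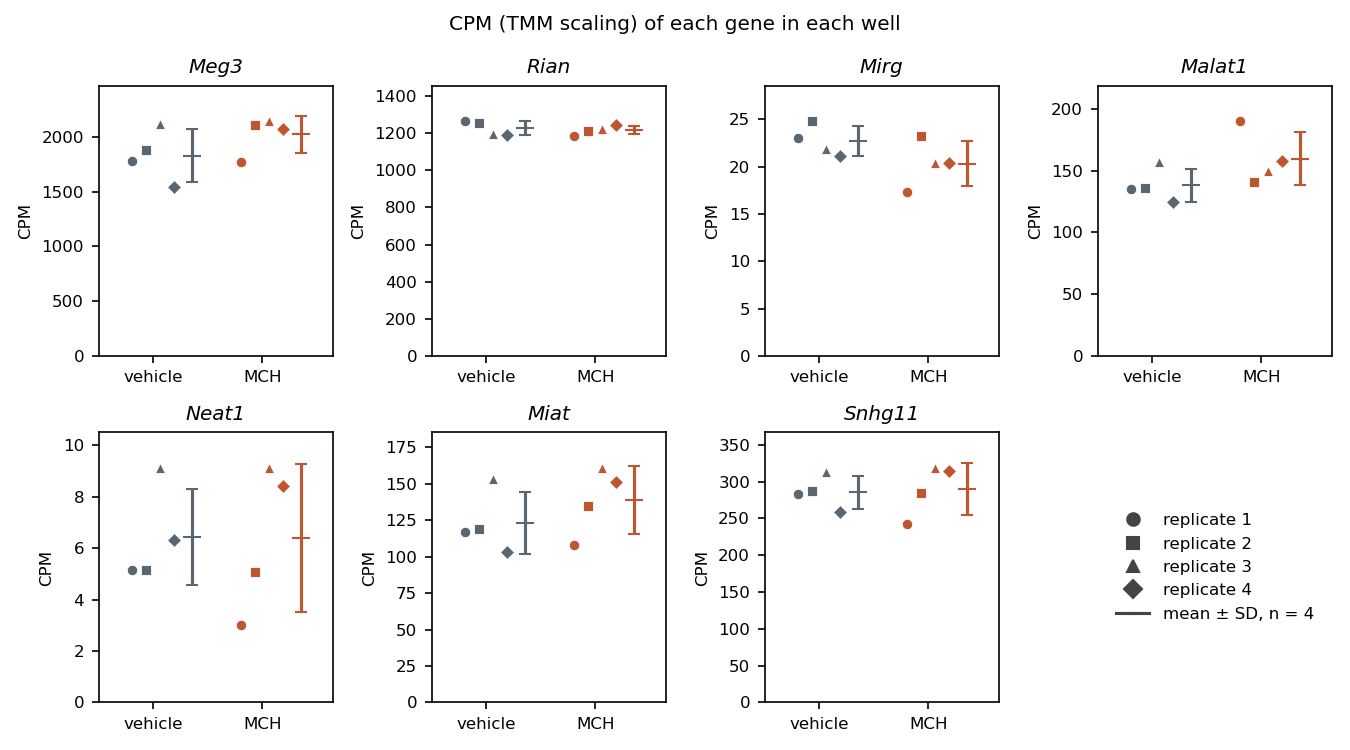
CPM (vertical axis, from 0) of the 7 genes in each vehicle-treated and MCH-treated well, with 1 symbol per replicate number and the mean ± SD of the 4 wells beside them. The treatments overlap in all 7 panels, and vehicle replicate 4 and MCH replicate 1 are low for *Meg3*, *Miat* and *Snhg11*.

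*Meg3* lies on the forward strand of chromosome 12 (GRCm38 chr12:109541001-109571726). It was the long noncoding gene with the highest mean CPM, and *Gm26906*, annotated on the opposite strand at its 3′ end, had at most 1 read in a well. Its CPM was 1777, 1876, 2121 and 1542 in vehicle replicates 1 to 4 and 1772, 2105, 2142 and 2069 in MCH replicates 1 to 4. MCH replicate 1 sat at the level of vehicle replicate 1, and the highest vehicle-treated well was above 3 of the 4 MCH-treated wells, so the treatments overlapped. The means were 1829 ± 240 CPM with vehicle and 2022 ± 170 CPM with MCH (SD, n = 4). The difference was 10.6% (95% interval −5.17% to 28.9%), or 0.14 on the log2 scale (SE 0.10, edgeR adjusted *P* = 0.770), and the exact permutation test over the 70 assignments of wells gave *P* = 0.314, where 0.0286 is the smallest value possible.

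The promoter window of *Meg3* is shown because it holds a palindrome that few promoters have. RefSeq (GRCm38.p6) gives windows of 250 bases before to 50 bases after the start for 6 of the 7 genes, and not for *Neat1*. The start used for *Mirg* (window chr12:109734731-109735030) lies inside the gene as GENCODE vM21 places it, not at its first base. The first window of *Meg3*, chr12:109540746-109541045 on the forward strand, reads as follows, with capitals for the cAMP response element TGACGTCA, the site of the cAMP-responsive factor CREB, and for a TATAAA box:
Meg3 promoter: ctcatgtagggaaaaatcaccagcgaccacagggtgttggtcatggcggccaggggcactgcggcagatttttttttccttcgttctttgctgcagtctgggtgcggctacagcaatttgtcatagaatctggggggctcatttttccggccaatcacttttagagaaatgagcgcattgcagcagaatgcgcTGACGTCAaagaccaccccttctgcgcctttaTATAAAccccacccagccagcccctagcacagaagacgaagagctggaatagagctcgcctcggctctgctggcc
TGACGTCA begins 57 bases before the start. Searched on both strands, it is in 588 (1.79%) of the 32851 windows of all genes, and its first letters TGACG, counted also where they are part of it, are in 20.8%. Of the 7 windows of the 6 genes, the first of *Meg3* was the only one with TGACGTCA or with TATAAA, the latter being in 13.6% of all windows. *Malat1* had 3 matches of TGACG, the nearest 3 bases before the start. The second RefSeq window of *Meg3*, chr12:109545148-109545447, held neither these motifs nor the other ones searched, the GC box GGGCGG and the E box CACGTG, which are in 35.7% and 7.15% of all windows. *Miat* had 1 match of GGGCGG. A match describes letters only, and these data hold no measurement of a factor at either start.

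*Rian* (chr12:109603940-109661716, forward strand) follows *Meg3* after a gap of 32213 bases and had the third highest mean CPM of the long noncoding genes. Its CPM was 1264, 1252, 1197 and 1192 in vehicle replicates 1 to 4 and 1187, 1212, 1222 and 1241 in MCH replicates 1 to 4. The 8 wells were nearly level, and the highest exceeded the lowest by 1.07 times. The mean was 1226 ± 37.2 CPM with vehicle and 1215 ± 22.8 CPM with MCH (SD, n = 4), a difference of −0.887% with a 95% interval from −6.04% to 4.55% (edgeR adjusted *P* = 0.996). This interval was the narrowest of the 7. The gene *Gm26945*, annotated inside *Rian* on the same strand, had 10 to 30 reads in a well.

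*Mirg* (chr12:109729764-109749460, forward strand) lies 68047 bases further on and ends 208460 bases after the start of *Meg3*. It was far lower than both. Its CPM was 23.0, 24.8, 21.9 and 21.1 in vehicle replicates 1 to 4 and 17.3, 23.2, 20.4 and 20.4 in MCH replicates 1 to 4. In each of the 4 pairs of wells with the same replicate number the MCH-treated well was lower, while MCH replicate 2 lay above 3 of the vehicle-treated wells. The means were 22.7 ± 1.60 and 20.3 ± 2.42 CPM (SD, n = 4), which is −0.16 on the log2 scale (SE 0.09, 95% interval −0.36 to 0.05, edgeR adjusted *P* = 0.711). Blocked by replicate number, edgeR gave an adjusted *P* value of 0.192. No source says what a number marks, so these pairs and this block rest on a pairing that is not shown. The ratio of *Mirg* to *Meg3* in TPM, a level per length and depth, was 0.0354 to 0.0459 in vehicle-treated wells and 0.0290 to 0.0340 in MCH-treated wells. These ranges did not overlap. It is 1 of 5 such ratios computed, the other 4 overlapped, and no test was run on it. The ratio of *Rian* to *Meg3* was 1.17 to 1.46 with vehicle and 1.08 to 1.35 with MCH.

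*Mirg* spans 14 annotated microRNA hairpins on its strand, *Rian* 4 hairpins and 13 small nucleolar RNA genes, and *Meg3* 2 hairpins. These small genes were close to unmeasured in the poly-A libraries, where 1 of the 33 had reads, at most 2 in a well. RefSeq lists 26 mature microRNAs inside *Mirg*, with 25 different seeds (bases 2 to 8, which pair with targets). A mature microRNA known from neuronal dendrites and the pair that shares a seed are printed to show what the host carries, with the seed in capitals:
mmu-miR-134-5p: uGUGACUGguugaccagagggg
mmu-miR-453: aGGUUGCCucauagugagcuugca
mmu-miR-496a-5p: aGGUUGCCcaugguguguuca
They lie on the forward strand of GRCm38.p6 at chr12:109734145-109734166, chr12:109735669-109735692 and chr12:109739132-109739152. A level of *Mirg* in these libraries is a level of host transcripts that keep a poly-A tail, not of the microRNAs.

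The paternally transcribed protein-coding genes *Dlk1*, *Rtl1* and *Dio3* were low. *Dlk1*, a membrane protein related to Notch ligands, was at 3.59 to 5.98 CPM in vehicle-treated wells and 3.15 to 5.85 CPM in MCH-treated wells (log2 fold change −0.09, edgeR adjusted *P* = 0.996). *Dio3*, which inactivates thyroid hormone, was at 0.145 to 0.776 CPM with vehicle and 0.113 to 0.667 CPM with MCH (log2 fold change −0.17, edgeR adjusted *P* = 1.0). *Rtl1*, a retrotransposon-derived gene on the opposite strand between *Meg3* and *Rian*, had at most 4 reads in a well and was not tested. Both *Dlk1* and *Dio3* were higher in wells 3 and 4 than in wells 1 and 2, by 0.52 and 0.46 on the scale of log2(CPM + 1). The added 1 shrinks the difference of a gene as low as *Dio3*. In CPM, *Dlk1* was at 3.15 to 4.09 in wells 1 and 2 and 5.27 to 5.98 in wells 3 and 4. *Dio3* was at 0.113 to 0.310 and 0.520 to 0.776 CPM. A list of 15 genes of the region and its flanks includes *Meg3*, *Rian* and *Mirg* themselves. Of the 15, 13 were tested, 0 passed in edgeR in either direction and 0 had an unadjusted *P* value under 0.05. Their median log2 fold change was −0.01.

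*Malat1* (chr19:5795690-5802672, reverse strand) had the lowest *P* value of the 7. Its CPM was 135, 136, 157 and 125 in vehicle replicates 1 to 4 and 190, 141, 150 and 158 in MCH replicates 1 to 4. MCH replicate 1 was above all other wells, and vehicle replicate 3 lay within the range of the MCH-treated wells. The means were 139 ± 13.5 and 159 ± 21.4 CPM (SD, n = 4). The log2 fold change was 0.20 (SE 0.10, 95% interval −0.02 to 0.43), with an unadjusted *P* value of 0.0740 and an adjusted *P* value of 0.640 in edgeR, and it ranked 1731st of the genes tested by *P* value. Without MCH replicate 1 or another single well, the log2 fold change lay between 0.11 and 0.28.

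*Neat1* (chr19:5824708-5845478, reverse strand) is separated from *Malat1* by 22035 bases. It was the lowest of the 7, with 94 to 263 estimated reads in a well. Its CPM was 5.15, 5.15, 9.13 and 6.32 in vehicle replicates 1 to 4 and 3.00, 5.07, 9.10 and 8.43 in MCH replicates 1 to 4. All wells numbered 3 and 4 were above all wells numbered 1 and 2, in both treatments. The means of 6.44 ± 1.88 and 6.40 ± 2.87 CPM (SD, n = 4) were nearly equal (log2 fold change −0.01, SE 0.35, edgeR adjusted *P* = 1.0). The 95% interval, from −43.2% to 73.4%, leaves room for large changes that were not detectable here.

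The 3′ ends of *Malat1* and of the long *Neat1* transcript are shown because the libraries selected poly-A RNA. Both RNAs are known to be cut at the 3′ end by RNase P and to be protected by a triple helix of U-rich and A-rich stretches in place of a poly-A tail. Their 60 bases up to the A-rich tract AAAAGCAAAA (in capitals, RNA strand as DNA letters, GENCODE vM21) read as follows:
Malat1-201: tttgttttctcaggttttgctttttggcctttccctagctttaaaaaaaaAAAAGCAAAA
Neat1-201: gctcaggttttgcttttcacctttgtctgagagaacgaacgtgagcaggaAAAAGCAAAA
They lie at chr19:5795982-5796041 and chr19:5824708-5824767 on the reverse strand. In Neat1-201 the tract is the annotated end, and in Malat1-201 the annotation runs on for 292 bases. The 10 letters occur anywhere in 1.12% of the 141515 GENCODE transcripts with at least 60 bases, and in 0.835% of the 9100 long intergenic ones. The share of *Malat1* or *Neat1* RNA that a poly-A selection leaves out was not tested.

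The short *Neat1* transcript and the leading transcripts of *Meg3*, *Rian*, *Mirg* and *Miat* hold a poly-A signal near their annotated end. Their last 60 annotated bases are given with the signal, AATAAA or ATTAAA, in capitals:
Meg3-209: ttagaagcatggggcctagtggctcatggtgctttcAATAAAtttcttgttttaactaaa
Rian-202: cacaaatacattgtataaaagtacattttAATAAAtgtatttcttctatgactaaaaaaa
Mirg-207: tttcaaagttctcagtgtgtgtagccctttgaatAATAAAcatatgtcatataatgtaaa
Miat-201: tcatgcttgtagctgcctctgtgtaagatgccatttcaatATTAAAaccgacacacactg
Neat1-202: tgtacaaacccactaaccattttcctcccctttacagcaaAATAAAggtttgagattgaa
They lie at chr12:109571667-109571726, chr12:109661657-109661716 and chr12:109749399-109749458 on the forward strand, and at chr5:112213230-112213289 and chr19:5842307-5842366 on the reverse strand. AATAAA or ATTAAA stands in the last 60 bases of 34.5% of all transcripts and of 40.1% of the long intergenic noncoding ones. The last 60 annotated bases of Malat1-201, which lie beyond its A-rich tract, also hold AATAAA, 22 bases before the end, and those of Neat1-201 hold neither signal.

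*Miat* (chr5:112213228-112229395, reverse strand) was at 117, 119, 153 and 103 CPM in vehicle replicates 1 to 4 and at 108, 135, 161 and 151 CPM in MCH replicates 1 to 4. Vehicle replicate 3 was higher than 3 of the MCH-treated wells, and MCH replicate 1 lower than 3 of the vehicle-treated wells. The means were 123 ± 21.0 and 139 ± 22.9 CPM (SD, n = 4), which is 0.17 on the log2 scale (SE 0.15, 95% interval −0.17 to 0.52, edgeR adjusted *P* = 0.850).

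*Snhg11* (chr2:158375638-158386145, forward strand) is annotated as protein coding in GENCODE vM21, although its name marks it as a small nucleolar RNA host gene, and it holds 2 annotated small nucleolar RNA genes without reads here. Its CPM was 283, 287, 313 and 259 in vehicle replicates 1 to 4 and 243, 285, 319 and 314 in MCH replicates 1 to 4. The lowest and the highest well were both MCH-treated. The means were 285 ± 22.2 and 290 ± 35.0 CPM (SD, n = 4), and the log2 fold change was 0.02 (SE 0.09, 95% interval −0.18 to 0.23, edgeR adjusted *P* = 1.0).

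**Figure D2:**
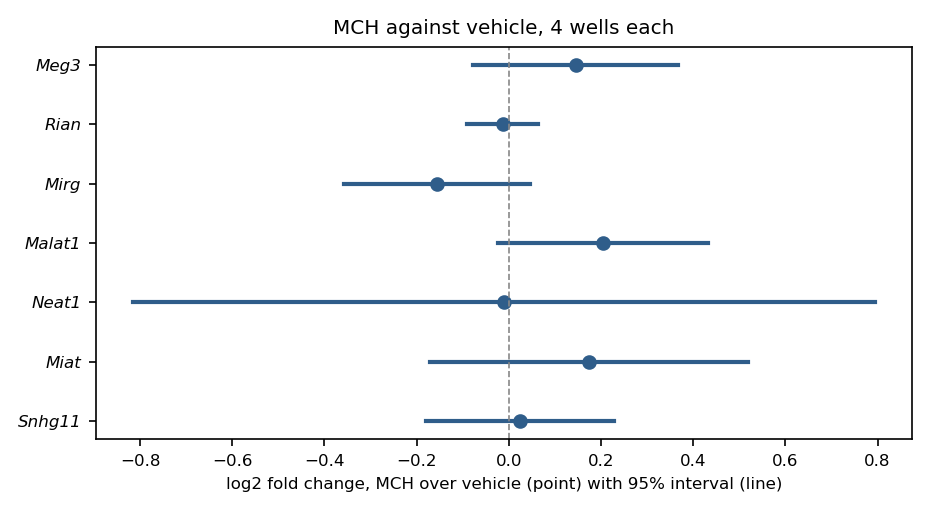
Log2 fold change of MCH over vehicle (horizontal axis, points) with its 95% interval (lines) for each of the 7 genes, from edgeR on 4 wells per treatment. All 7 intervals include 0. *Rian* has the narrowest, from −0.09 to 0.06, and *Neat1* the widest, from −0.82 to 0.79.

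Levels were compared between genes on the TPM scale. *Rian* had the highest level, 1733 to 1855 TPM over the 8 wells, followed by *Meg3* with 1188 to 1618 TPM. *Rian* was above *Meg3* in all 8 wells, although *Meg3* had the higher CPM, which is not scaled for length. *Snhg11* came next with 77.1 to 101 TPM. *Mirg*, at 43.8 to 62.3 TPM, and *Malat1*, at 43.0 to 72.9 TPM, overlapped, with means of 52.2 and 51.9 TPM, and their order is not resolved. *Miat*, at 24.7 to 44.5 TPM, overlapped the lower part of both, and *Neat1* was lowest with 2.00 to 5.53 TPM. Among the 24039 genes with a TPM above 0, *Rian* ranked 45th and *Meg3* 52nd, *Snhg11* 2114th, *Malat1* 3644th and *Neat1* 11378th. In the mean TPM of *Malat1*, Malat1-201 held 37.1 and Malat1-203, of 485 bases and 1.38% of its reads, 14.7. As the libraries selected poly-A RNA, the levels and ranks of *Malat1* and *Neat1* need not be those of their total RNA. The 7 genes held 0.327% to 0.409% of the reads of a well, and the 6 of them that are annotated as noncoding held 33.8% to 37.8% of the reads on long noncoding genes.

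**Figure D3:**
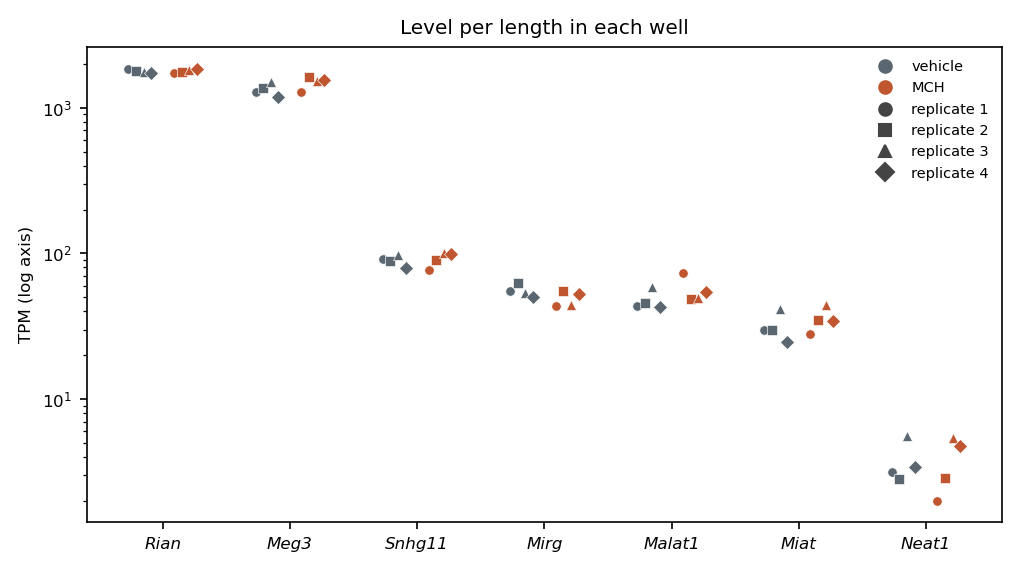
TPM on a log axis (vertical) of the 7 genes, ordered by their mean, in each vehicle-treated and MCH-treated well. *Rian* and *Meg3* lie above 1188 TPM in all wells, *Mirg* and *Malat1* overlap, and *Neat1* lies at 5.53 TPM or lower.

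The spread between wells differed among these genes. Over the 8 wells, the coefficient of variation of the CPM was 2.39% for *Rian*, beside a median of 4.77% for the 200 genes nearest to it in CPM, of which 9.5% varied less. It was 11.3% for *Meg3* (median of its 200 neighbours 4.73%), 13.4% for *Malat1* (4.99%), 16.8% for *Miat* (5.18%) and 9.47% for *Snhg11* (4.68%). These 4 genes varied more than 87.0% to 98.5% of the genes at like CPM. *Mirg* varied by 10.5% and *Neat1* by 35.0%, beside medians of 7.32% and 12.1% for genes at their lower levels. They varied more than 80.0% and 89.5% of those genes.

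*Meg3*, *Miat* and *Snhg11* deviated in the same direction in several wells. On the scale of log2(CPM + 1) less the mean of the treatment, vehicle replicate 4 was at −0.24, −0.23 and −0.14 for these 3 genes and MCH replicate 1 at −0.19, −0.34 and −0.25. Vehicle replicate 3 was at 0.22, 0.32 and 0.14. *Neat1* was likewise low in MCH replicate 1 (−0.79) and high in vehicle replicate 3 (0.48), but at 0.01 in vehicle replicate 4. *Malat1* went its own way in MCH replicate 1, at 0.26, the highest deviation among its wells, and *Rian* stayed within −0.04 and 0.04 in all of them. Vehicle replicate 4 and MCH replicate 1 were also the wells with the lowest share of reads on transcripts annotated as retained introns, 1.39% and 1.40%, against 1.43% to 1.52% in the other wells. The part of this share in the spread was not tested.

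As a description over the 8 wells with the treatment means taken out, Pearson's *r* was 0.967 for *Miat* with *Snhg11* (Spearman's rho 0.905), 0.916 for *Meg3* with *Miat* (rho 0.905) and 0.865 for *Meg3* with *Snhg11* (rho 0.786). Without the 2 wells farthest from the median, *r* was 0.987, 0.824 and 0.607. With the mean of each side (wells 1 and 2, wells 3 and 4) taken out as well, it was 0.978, 0.992 and 0.975. *Neat1* had an *r* of 0.880 with *Snhg11* and 0.871 with *Miat* (rho 0.762 and 0.810), 0.688 and 0.734 without the 2 farthest wells, and 0.974 and 0.922 with the sides taken out. For *Meg3* with *Rian*, its neighbour in the imprinted region, *r* was 0.28 and rho 0.0714, and without the 2 farthest wells *r* was −0.934. For *Malat1* with *Neat1*, also neighbours, *r* was −0.24. These values share the libraries and their scaling, the wells fall into the 2 sides, and they were not tested. The genes most like *Meg3* among all tested were *Immp1l* (0.978), *Leng8* (0.966) and *Slc2a12* (0.962), and those most like *Miat* were *Thbs3* (0.981), *Ddias* (0.978) and *Leng8* (0.978). For *Snhg11* they were *Rbm5* (0.985), *Chmp5* (0.981) and *Cd84* (0.971), for *Rian* *Mtcp1* (0.974), *4930518I15Rik* (0.960) and *Grk5* (0.959), and for *Mirg* *Tepsin* (0.987), *Fbxl6* (0.975) and *Srp14* (0.968). *Malat1* was most like *Zfp644* (0.971), *Pde11a* (0.967) and *Tmco6* (0.960), and *Neat1* most like *Camkk2* (0.990), *Gm3764* (0.988) and *Tox3* (0.986). *Neat1* had 430 genes with *r* over 0.9, whereas *Meg3* had 22. The values of these most like genes are the highest among all genes tested, so their size follows in part from the choice. With the sides taken out as well, they were 0.967, 0.875 and 0.832 for *Rian*, and 0.950 to 0.995 for the others.

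**Figure D4:**
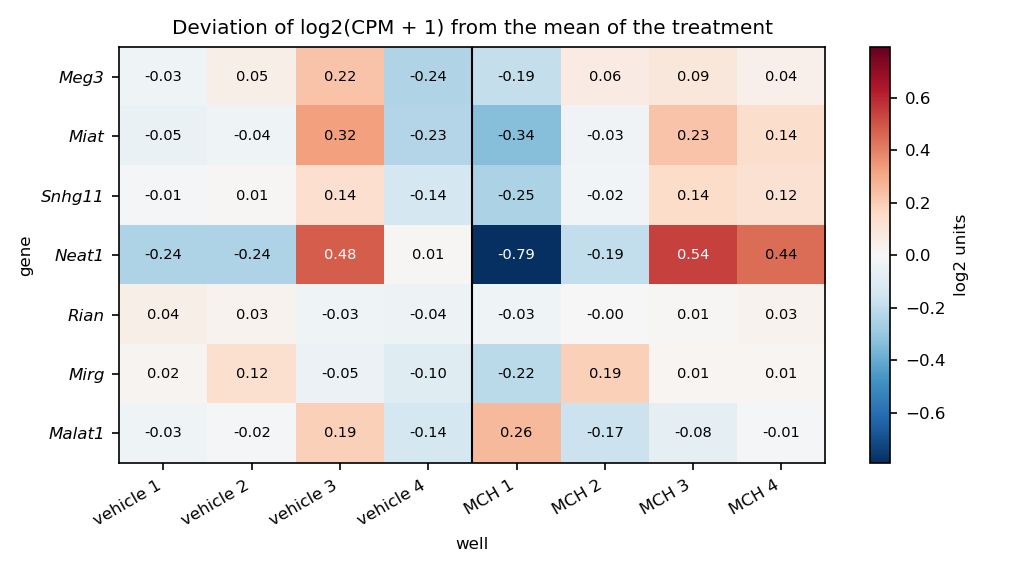
Deviation of log2(CPM + 1) from the mean of the treatment (colour and printed value, log2 units) for the 7 genes (vertical) in each well (horizontal). *Meg3*, *Miat* and *Snhg11* are low in vehicle replicate 4 and MCH replicate 1 and high in vehicle replicate 3, *Neat1* ranges from −0.79 to 0.54, and *Rian* is close to 0 throughout.

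*Neat1* was the only one of the 7 in which the 2 sides did not overlap, with a mean of 4.59 CPM in wells 1 and 2 and 8.24 CPM in wells 3 and 4. These means differed by 1.80 times. On the scale of log2(CPM + 1), used for all side differences here, the difference was 0.74, larger in size than that of 95.8% of the genes tested. Over all genes tested, the sides did not overlap in 4422 (29.6%) and the median size of the difference was 0.10. *Miat* was higher in wells 3 and 4 by 0.23 and *Snhg11* by 0.13, with overlap, and the other 4 genes differed by at most 0.06. The sides were read from these counts, so the differences are a description with no test. The summed markers of astrocytes, progenitors and the oligodendrocyte lineage given above move with the same wells. So do 10 markers of fibroblasts or vessels, at 22.3 to 28.0 CPM in wells 1 and 2 and 59.9 to 66.0 CPM in wells 3 and 4. Of these, *Dcn* alone was at 12.9 to 43.5 CPM over the 8 wells. In the other direction moved 12 markers of inhibitory neurons, at 2926 to 3171 and 2380 to 2651 CPM. The sum of the 15 neuronal markers, at 9738 to 9926 and 8922 to 9149 CPM, was also lower in wells 3 and 4. The part of these cells in the level of *Neat1* was not tested. Within the sides, the difference of *Neat1* between MCH and vehicle in log2(CPM + 1) was −0.32 in wells 1 and 2 and 0.18 in wells 3 and 4. That of *Meg3* was 0.08 and 0.22, that of *Malat1* 0.27 and 0.13, and that of *Mirg* −0.24 and −0.07.

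The tables hold 60 transcripts of the 7 genes, of which 43 were tested and 19 held at least 5% of the reads of their gene. None passed in edgeR across the 33527 transcripts tested, where 0 transcripts (0%) had an adjusted *P* value under 0.05, 1476 an unadjusted one, and DESeq2 called 281 (0.838%). The lowest unadjusted *P* value among the 43 was 0.0583, for Mirg-206, at 1.96 ± 0.222 CPM with vehicle and 1.14 ± 0.508 CPM with MCH (SD, n = 4, log2 fold change −0.79, edgeR adjusted *P* = 1.0). Reads on stretches that transcripts share are divided among them by salmon's model, so values for overlapping transcripts are less certain than those for genes.

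*Meg3* reads fell mainly on Meg3-209, a transcript of 14548 bases that starts within the second of the RefSeq windows and held 65.2% to 66.8% of them. Its mean share was 66.0% ± 0.635 with vehicle and 66.1% ± 0.501 with MCH (SD, n = 4, exact permutation *P* = 0.771). Because it is long, it made up only 10.6% and 10.7% of the TPM of the gene. Rian-202 held 57.2% ± 0.518 and 57.4% ± 0.819 of the *Rian* reads (exact permutation *P* = 0.600), followed by Rian-213 with 25.4%. *Mirg* was spread over 6 transcripts, led by Mirg-207 with 33.0% ± 2.21 and 35.5% ± 4.88 (exact permutation *P* = 0.457). Miat-201 held 93.6% ± 1.16 and 93.2% ± 1.35 of the *Miat* reads (exact permutation *P* = 0.486). Malat1-201 and Snhg11-201 each held 98.6% of the reads of their gene.

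Neat1-202, the short transcript of 3004 bases, held 92.1%, 89.5%, 84.1% and 85.7% of the *Neat1* reads in vehicle replicates 1 to 4 and 67.6%, 89.8%, 87.6% and 88.9% in MCH replicates 1 to 4. MCH replicate 1 stood alone, and it was also the well with the fewest *Neat1* reads, 94. The long Neat1-201, of 20771 bases and needed for paraspeckles, had 8 to 32 estimated reads in a well. The mean share of Neat1-202 was 87.8% ± 3.61 with vehicle and 83.5% ± 10.6 with MCH (SD, n = 4, exact permutation *P* = 0.686).

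**Figure D5:**
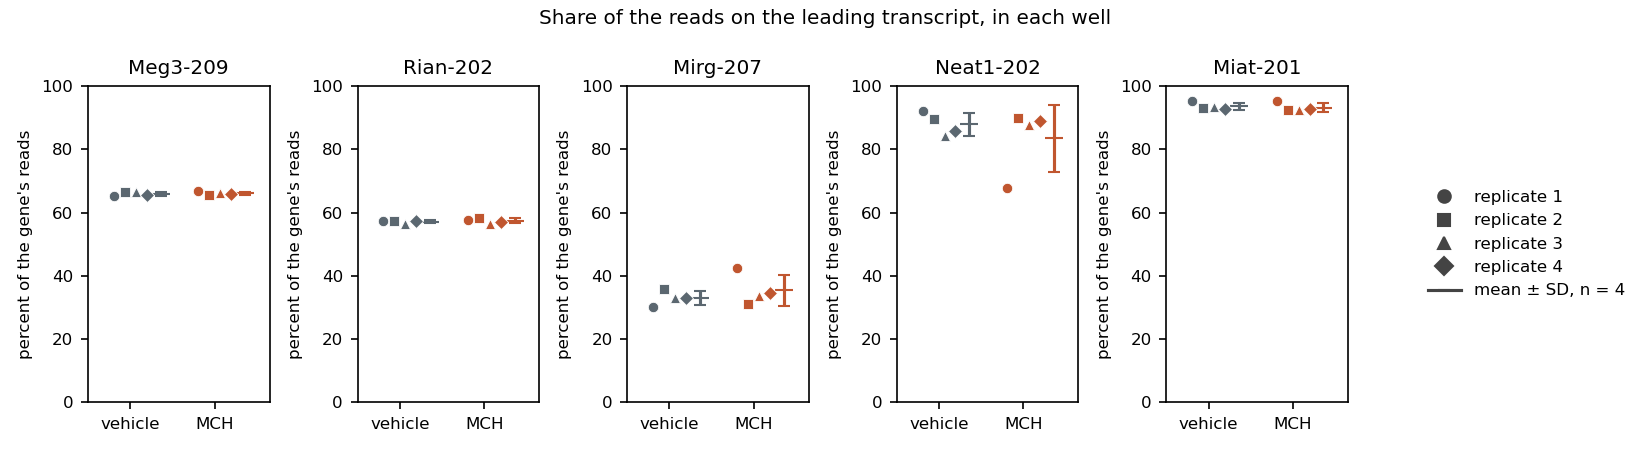
Percent of the reads of a gene on its leading transcript (vertical axis, 0 to 100) in each well for the 5 genes with at least 2 transcripts over 5%, with the mean ± SD of the 4 wells. Vehicle-treated and MCH-treated wells overlap in all 5 panels, and MCH replicate 1 is low for Neat1-202 at 67.6%.

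The partners and relatives of these RNAs were followed in lists of genes, and none of these lists held a gene that passed in edgeR in either direction. Counts at an unadjusted *P* value under 0.05 are given beside the 8.5% of all genes tested that reached it, and with lists this short nothing is read from them. Of 20 paraspeckle proteins, which bind *Neat1*, all 20 were tested and 0 had an unadjusted *P* value under 0.05 (median log2 fold change −0.02). Of 22 tested splicing factors of the nuclear speckles, in which *Malat1* resides, 3 did, namely *Srrm2* (log2 fold change 0.17), *Rbm25* (0.11) and *U2af1* (−0.18), with a lowest adjusted *P* value of 0.401. Of 12 genes of Polycomb repressive complex 2, which is known to bind *Meg3*, 1 did, *Ezh1* (0.13). The medians of these lists were 0.03 and −0.01. Of 13 tested snoRNA host genes 2 did, *Snhg5* (0.26) and *Snhg14* (0.17), with a median of −0.02 over the list.

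Of 40 tested imprinted genes outside the region, 4 had an unadjusted *P* value under 0.05 in edgeR, beside 8.5% of all genes tested. *Peg3* (log2 fold change 0.15), *Snhg14* (0.17) and *Kcnq1ot1* (0.61) had a higher mean with MCH, and *Inpp5f* a lower one (−0.12), all with an adjusted *P* value of at least 0.463. The median of the list was −0.03. Of 19 other tested long noncoding RNAs of neurons or the nucleus, 3 did, *Mir9-3hg* (−0.19), *Sox2ot* (−0.13) and *Kcnq1ot1*, with a median of −0.02. Each median lay within 0.03 of 0, beside a median of −0.0027 over all genes tested. Blocked by replicate number, edgeR called 596 genes (3.98%) and 0 of the 7 noncoding RNAs. Among the imprinted genes elsewhere and the other long noncoding RNAs, that fit called *Inpp5f* (adjusted *P* = 0.0151), *Nap1l5* (0.0343), *Mir9-3hg* (0.0305) and *Dlx6os1* (0.0287), all lower with MCH, by 0.12, 0.11, 0.19 and 0.16 on the log2 scale, and all with overlapping treatments. Of 12 tested markers of inhibitory neurons it called *Gad1* and *Vip*, lower with MCH by 0.10 and 0.23 (adjusted *P* = 0.0349 and 0.0298). Of 10 tested astrocyte markers it called *Slc1a2*, a glutamate transporter, higher by 0.15 (0.0353), and it called none of the other cell type markers. Beside the 3.98% called over all genes, nothing is read from these counts. In simulated counts this fit gave 22 false calls beside 183 changed genes found. The treatments did not overlap in *Vip*, nor in 6.03% of all genes tested. Without the block, *Gad1*, *Vip* and *Slc1a2* did not pass in edgeR. A lower mean with MCH was seen in 10 of the 12 inhibitory neuron markers, beside 51.0% of all genes tested. The median over these 12 was −0.09 on the log2 scale. These markers share the wells, and their sum differed between the sides, so they are not 12 separate observations. Their summed CPM gave an exact permutation *P* of 0.514 between the treatments, and nothing is read from the count. *Dlx6os1* is itself known from inhibitory neurons, and the part of these cells in its difference was not tested. The 7 list genes given here as called with the replicate block, *Inpp5f* to *Slc1a2*, were named after their values were seen.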

How the data were processed

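Poly-A RNA of 8 wells was sequenced from stranded libraries. Salmon, run by the authors in nf-core/rnaseq (3.0) with GRCm38, gave the deposited tables of estimated counts for transcripts and genes, which are scaled neither for depth nor for length. The TPM values deposited by the authors are scaled for length and depth. The annotation release and the strand setting are not given in the sources used here. GENCODE vM21 named 45143 of 45706 genes (98.8%) and gave coordinates. The 7 genes, the lists and the alternatives were chosen with earlier results of these data known.

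Totals were 26083936 to 31844861 counts per well. Fewer than 3 counts were taken as absent, which covers counting error only. Counts were rounded and fitted in R 4.3.3 with edgeR 4.0.16 (TMM, filterByExpr, robust quasi-likelihood F test, treatment as the only term, Benjamini–Hochberg over all genes or transcripts tested, threshold 0.05). The SE is the log2 fold change over the square root of F. CPM use TMM library sizes. Permutation tests were two-sided and exact, on log2(CPM + 1), on shares or, for marker sums, on summed CPM. DESeq2 1.42.0 and limma 3.58.1 (voom) were alternatives, as were RLE factors, no filter, a length offset, blocks and leaving out each well. On counts simulated for this comparison over 14962 genes, 148 of 200 genes changed by 1 on the log2 scale were found, with 0 false calls, and over 33527 transcripts 32 of 200. The simulation held a term for the sides (wells 1 and 2, wells 3 and 4), and the fit with treatment only did not.

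Genes named are the 7, *Dlk1*, *Rtl1* and *Dio3*, list members that passed, transcripts with at least 5% of the reads of their gene, and for each of the 7 the 3 genes with the highest Pearson's *r*. List genes with an unadjusted *P* value under 0.05 or called with the replicate block, and *Fos*, were added after their values were seen. Replicate numbers are shared by the treatments. Deviations from the treatment means correlated at 0.604 to 0.682 between wells of the same number, at 0.624 to 0.642 between other wells of the same side and at −0.677 to −0.600 across sides. Wells of the same number met the rule that every pair exceed 0.1, but so did other wells of the same side, at like values. The rule therefore cannot tell a pairing by number from the sides. No source says what a number marks, so the replicate block rests on a pairing that these values do not show beyond the sides.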

Additional observations from a re-analysis of the deposited data

Results flagged for a closer look

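In 62 groups of 4 wells (CPM of the 7 genes and of their larger transcripts, and shares of leading transcripts), 6 wells lay apart from the other 3 by Dixon's 95% criterion, which chance meets in about 1 of 20 groups. Meg3-201 was at 209 CPM in vehicle replicate 4, against 241 to 248 in the other vehicle-treated wells, and at 205 CPM in MCH replicate 1, against 252 to 262. These are the wells in which the *Meg3* gene was lowest within each treatment. Mirg-207 was at 8.85 CPM in vehicle replicate 2, against 6.98 to 7.22. Rian-202 held 56.4% of the *Rian* reads in vehicle replicate 3, against 57.4% to 57.5%. In MCH replicate 1, Neat1-202 held 67.6% of the *Neat1* reads, against 87.6% to 89.8%, and Miat-201 held 95.2% of the *Miat* reads, against 92.3% to 92.7%. A cause was not tested for any of them.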

How the results depend on the processing

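None of the 7 genes passed the threshold under any alternative run (DESeq2, limma voom, RLE factors, no filter, a length offset, both blocks, each well left out), and apart from single wells left out all 7 kept their direction. The number of genes called, 35, became 170 in DESeq2, 7 with a length offset, 596 with the replicate block, 668 with a block for the sides and 4 to 29 with single wells left out. Of transcripts, 0 became 281 in DESeq2, 6 with the block for the sides and 0 to 1 with single wells left out, and stayed 0 with the replicate block. Both blocks called 2 of the imprinted genes elsewhere, 2 of the other long noncoding RNAs and the cell type markers *Gad1* and *Vip*. The replicate block also called the marker *Slc1a2*, and neither block called a gene of the other lists. With single wells left out, the log2 fold change of *Rian* ranged from −0.0222 to 0.00825, that of *Neat1* from −0.225 to 0.229 and that of *Snhg11* from −0.0177 to 0.104. The sign was not fixed for these 3 genes, while *Meg3* (0.07 to 0.23), *Malat1* (0.11 to 0.28), *Miat* (0.10 to 0.30) and *Mirg* (−0.22 to −0.08) kept theirs. Sign changes among transcripts came with the ranges −0.0208 to 0.0114 for Rian-202, −0.0318 to 0.00550 for Rian-213, −0.487 to 0.228 for Mirg-208, −0.0875 to 0.239 for Mirg-210 (−0.0395 with the replicate block), −0.0971 to 0.0229 for Mirg-207, −0.134 to 0.418 for Neat1-201, −0.257 to 0.246 for Neat1-202 and −0.0166 to 0.105 for Snhg11-201. The share of Miat-201 differed by −0.460 percentage points of reads and by 0.751 points of TPM between treatments. The cause of these changes was not tested. In the simulated counts, the fit with the replicate block found 183 of 200 changed genes, with 22 false calls. These counts were simulated with a term for the sides and none for the replicate numbers. Counts limit *Neat1* and the smaller *Mirg* transcripts, and no source ties a well to its culture.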
